A study of Mus musculus with 12 samples.

Results

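Fatty acid oxidation, ketogenesis and their control by the nuclear receptor PPAR-alpha were followed through 33 genes in the livers of 12 mice. The genes were taken by symbol from a list of enzymes, carriers and regulators of these pathways, out of 51912 genes in the table of counts. All 33 were found and all 33 passed the filter on low counts, with at least 20 reads in every library. By the place where their protein works, 19 were classed as mitochondrial, 9 as peroxisomal and 5 as other, the last being a pair of transcription factors, a hormone, a pantetheinase and an acyl-CoA synthetase. The mitochondrial class holds the carnitine shuttle, the spiral of beta-oxidation and its electron carriers, and also a ketone body enzyme and a kinase of pyruvate dehydrogenase. Crat, Eci2 and Acad11 have been placed in both organelles, and class values are given with and without these 3 genes.

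Mitochondria take up long-chain fatty acids as carnitine esters, shorten them by cycles of dehydrogenation, hydration, oxidation and thiolysis, and pass the electrons to the respiratory chain. The acetyl-CoA that results is burned or, in the fasted liver, turned into ketone bodies. Peroxisomes shorten very long-chain and dicarboxylic acids with their own set of enzymes and hand the products to mitochondria. PPAR-alpha is activated by fatty acids and raises the transcription of genes of both organelles. In rodents, peroxisomal enzymes are known for their large response to drugs that activate it.

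The animals were Mlkl-/- mice fed a high-fat diet (HFD), Mlkl-/- mice fed normal chow (ND), wild-type mice fed HFD and wild-type mice fed ND, with 3 livers in each group. HFD held 36% fat and gave 59% of energy from lipid, and feeding began at 8 to 9 weeks of age. The sample labels give 25 weeks of feeding and the series text 16 to 25. Livers were taken from fed animals chosen by mean organ weight, so they are not a random draw. The labels and the series text do not state the Mlkl allele, the strain, the sex or the make-up of the chow. MLKL is the pseudokinase that carries out necroptosis, a lytic form of cell death, and the knockout is not described as limited to hepatocytes.

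Each library held 19435391 to 32120426 counts from reads at the 3' ends of transcripts. Mlkl itself had 9 to 34 counts in the 6 Mlkl-/- libraries, against 72 to 252 in the 6 wild-type libraries. Hepatocyte markers were counted far above markers of other liver cells in every library, with 57587 to 106390 CPM (the count divided by the scaled library size, on a fixed scale) summed over 7 genes. Libraries differed in 2 further ways. A code in the sample titles, of meaning not given, is 25 or 29 in HFD titles and 23 or 27 in ND titles, so no code is shared between diets. The codes were grouped here, as an assumption, into a lower level of 25 and 23 (Mlkl-/- HFD 1 and 2, Mlkl-/- ND 1, wild-type HFD 1, wild-type ND 1 and 2) and a higher level of 29 and 27. At 8 loci, most of them small RNA annotations, 6 libraries held 3484 to 9239 CPM and 6 held 378 to 656 CPM. For these loci alone, CPM was taken on the total counts of a library without scaling. The 6 with much were all 3 Mlkl-/- HFD libraries, Mlkl-/- ND 1 and wild-type HFD 2 and 3, so this level moves with diet. In what follows these are called the title code level and the 8-locus level. The numbers 1 to 3 name the libraries of a group in the order of deposit and pair nothing.

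The promoters of the 3 called members with the smallest p for diet are shown first, because they come from both organelles. Each run is the 250 bases upstream of a RefSeq transcript start (GRCm38.p6), read 5' to 3' on the gene's strand. Capitals mark the letters GGGCGG or CCGCCC (the GC box on either strand) and CCAAT or ATTGG (the CCAAT box on either strand). Decr2, the peroxisomal dienoyl-CoA reductase, is read on the minus strand from chr17:26090165-26090414. Bdh1, the mitochondrial dehydrogenase that makes and uses beta-hydroxybutyrate, has a pair of starts, read on the plus strand from chr16:31422047-31422296 and chr16:31428503-31428752. Hadh, the mitochondrial hydroxyacyl-CoA dehydrogenase, is read on the minus strand from chr3:131272102-131272351.
Decr2: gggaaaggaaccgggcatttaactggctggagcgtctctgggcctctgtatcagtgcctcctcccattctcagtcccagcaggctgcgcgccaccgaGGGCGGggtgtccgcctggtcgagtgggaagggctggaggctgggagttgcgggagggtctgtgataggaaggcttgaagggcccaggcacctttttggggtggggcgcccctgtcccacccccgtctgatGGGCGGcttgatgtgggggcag
Bdh1, upstream start: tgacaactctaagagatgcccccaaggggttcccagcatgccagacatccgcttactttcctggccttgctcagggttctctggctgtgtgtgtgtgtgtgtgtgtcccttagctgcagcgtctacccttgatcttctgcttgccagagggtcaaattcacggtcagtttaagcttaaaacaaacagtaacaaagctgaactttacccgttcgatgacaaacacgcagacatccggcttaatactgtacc
Bdh1, downstream start: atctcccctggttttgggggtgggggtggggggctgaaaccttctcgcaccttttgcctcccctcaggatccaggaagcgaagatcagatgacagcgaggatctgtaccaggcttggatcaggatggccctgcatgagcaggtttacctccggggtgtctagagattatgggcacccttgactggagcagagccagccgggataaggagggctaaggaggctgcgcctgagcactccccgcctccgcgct
Hadh: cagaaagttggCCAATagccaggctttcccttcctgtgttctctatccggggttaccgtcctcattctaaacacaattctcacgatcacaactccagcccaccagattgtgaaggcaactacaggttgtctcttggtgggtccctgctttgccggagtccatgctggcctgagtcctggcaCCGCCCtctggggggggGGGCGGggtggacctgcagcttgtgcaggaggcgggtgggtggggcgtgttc
Decr2 holds 2 GC boxes and no CCAAT box, Hadh holds 2 GC boxes and 1 CCAAT box, and both Bdh1 windows hold 0 of either. In the GENCODE models Decr2 starts at 26090337, inside its window. Most of that window, with its 2 GC boxes, is therefore transcribed in that annotation and not upstream. Bdh1 starts there at 31422280, near the end of its upstream window, and its downstream window lies wholly inside the gene.

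A RefSeq promoter was found for 28 of the 33 members, in 31 windows, and motifs were counted on both strands beside all 32851 windows of the table. The direct repeat AGGTCANAGGTCA, the textbook element of PPAR-alpha with its partner RXR, was in 0 of 31 member windows and in 0.0335% of all windows. With 1 free base in each arm, as AGGNCANAGGNCA, it was in 0 member windows and in 0.338% of all. Its arm alone, AGGTCA, was found in the windows of 4 members (Acadm, Acadvl, Cpt1a and Creb3l3) and in 14.0% of all windows. GC boxes were in the windows of 18 members and 32.7% of all windows, and CCAAT boxes in those of 14 members and 33.8% of all windows. Every match to AGGTCANAGGTCA is also a match to AGGTCA, and an absent match says only that these letters are not in these 250 bases.

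HFD against ND, averaged over the genotypes, raised 15 of the 33 genes and lowered none, at an adjusted p under 0.05 over all 18098 genes tested (edgeR). Of all genes tested, 3.57% were called higher and 3.62% lower. The 15 were 8 of 19 mitochondrial members, 6 of 9 peroxisomal members and the pantetheinase gene Vnn1. The largest changes were in Vnn1, at 4.31-fold, and in Pdk4, a kinase that closes the entry of pyruvate into the citric acid cycle, at 3.66-fold. The other 13 lay between 1.31-fold (Hsd17b4) and 1.99-fold (Acaa1b). In bulk liver, fewer cells of a type and less RNA per cell cannot be told apart. The fitted difference was above 0 for 30 of the 33 genes, against 48.2% of all genes. Library by library, 12 members were higher in every HFD liver than in any ND liver of the same genotype, in both genotypes, against 2.69% of all genes. The shading of the members by library shows these shifts gene by gene.

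**Figure D1:**
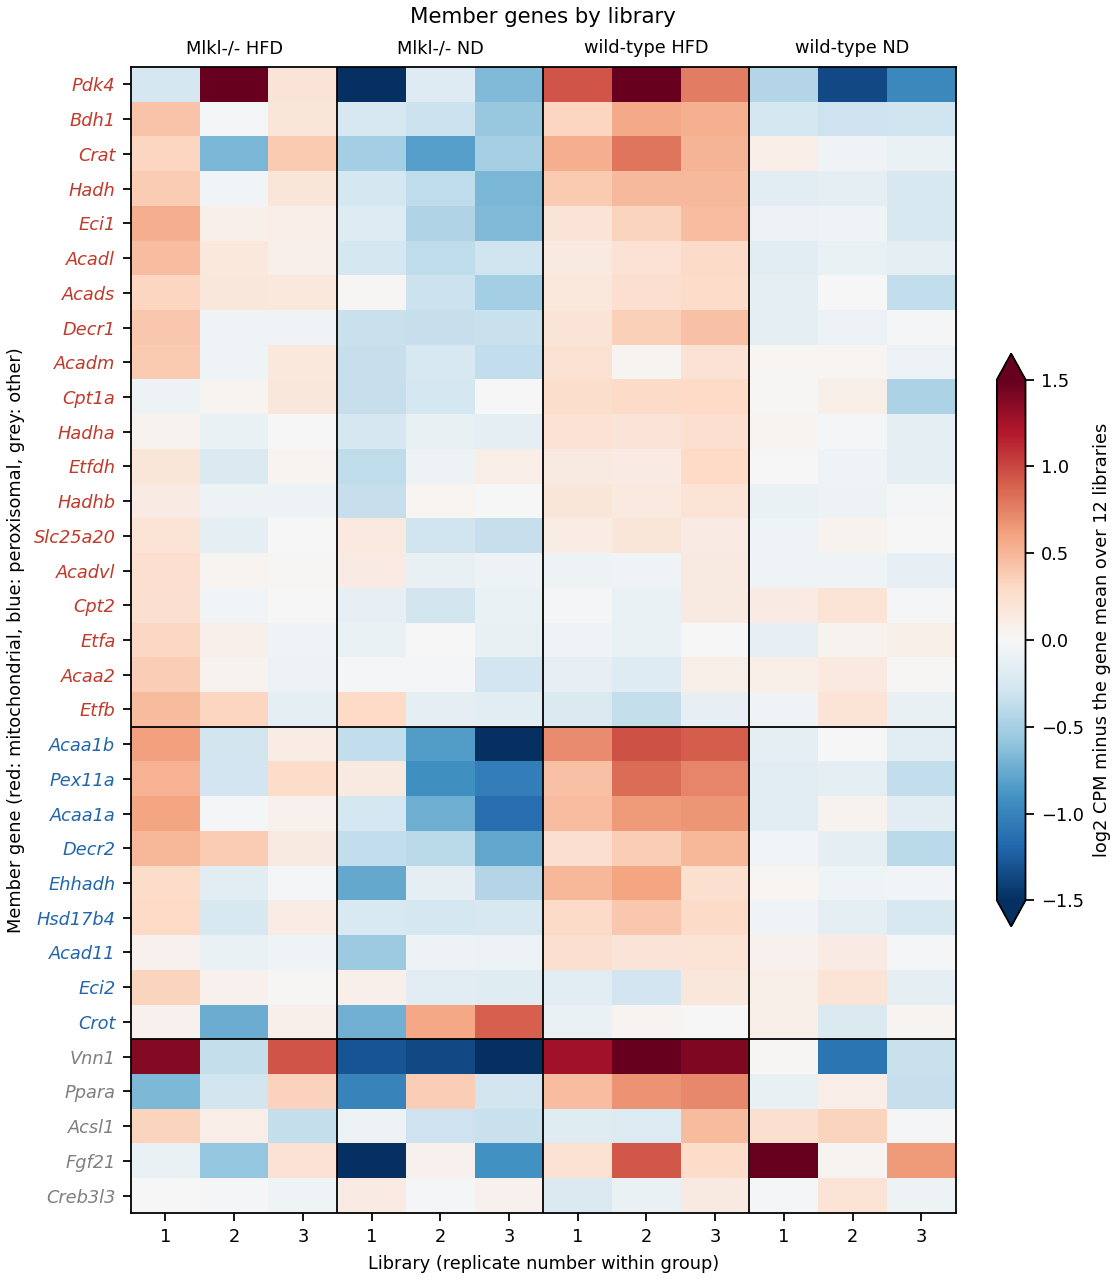
Deviation of each of the 33 genes (rows, mitochondrial, peroxisomal and other from top to bottom) from its own mean over 12 libraries, in log2 CPM, by library (columns). Of the HFD columns 5 are red for 22 to 32 genes, whereas Mlkl-/- HFD library 2 is red for 12, and the ND columns are red for 4 to 14.

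In the mitochondrial class the ketone body enzyme Bdh1 had the smallest adjusted p. Its level was 314, 228 and 264 CPM on HFD and 198, 187 and 157 CPM on ND in Mlkl-/- livers, and 291, 348 and 337 CPM on HFD and 195, 188 and 190.5 CPM on ND in wild-type livers. All 6 HFD livers were above all 6 ND livers, and the averaged log2 difference was 0.67 ± 0.11 (SE; adjusted p = 0.00253). Hadh, which oxidises hydroxyacyl intermediates of the cycle, had 367, 273 and 319.6 CPM on HFD and 234, 217 and 175 CPM on ND in Mlkl-/- livers, and 369, 396 and 394 CPM on HFD and 252, 254 and 239.6 CPM on ND in wild-type livers. Every HFD liver again exceeded every ND liver, with a difference of 0.63 ± 0.11 (adjusted p = 0.00375). Eci1, an isomerase that brings unsaturated fatty acids into the cycle, had 174, 126 and 128 CPM on HFD and 104, 86.7 and 75.4 CPM on ND in Mlkl-/- livers, and 136, 150.0 and 164 CPM on HFD and 112, 114 and 101 CPM on ND in wild-type livers. HFD and ND livers did not overlap here either, and the difference was 0.57 ± 0.11 (adjusted p = 0.00846).

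Acadl, the long-chain acyl-CoA dehydrogenase, had 296, 238 and 225 CPM on HFD and 177, 164 and 174 CPM on ND in Mlkl-/- livers, and 235, 249 and 260.4 CPM on HFD and 191, 199 and 194 CPM on ND in wild-type livers. HFD livers were above ND livers in all 12 libraries, by 0.45 ± 0.09 on the log2 scale (adjusted p = 0.0111). Acads, the short-chain dehydrogenase, had 193, 174 and 172 CPM on HFD and 156, 124 and 108 CPM on ND in Mlkl-/- livers, and 172, 184 and 187 CPM on HFD and 141, 153 and 119 CPM on ND in wild-type livers. All HFD livers were above all ND livers here as well (0.44 ± 0.11, adjusted p = 0.0237). Decr1, the mitochondrial dienoyl-CoA reductase, had 237, 171 and 172 CPM on HFD and 142, 141 and 141 CPM on ND in Mlkl-/- livers, and 205, 229 and 243 CPM on HFD and 163, 169 and 175 CPM on ND in wild-type livers. Mlkl-/- HFD libraries 2 and 3 were at the level of the wild-type ND livers, but above all Mlkl-/- ND livers (0.43 ± 0.10, adjusted p = 0.0204).

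Crat, which exchanges short acyl groups between CoA and carnitine, had 65.9, 32.6 and 68.9 CPM on HFD and 36.9, 29.7 and 37.3 CPM on ND in Mlkl-/- livers, and 76.7, 91.8 and 75.0 CPM on HFD and 56.5, 50.7 and 49.1 CPM on ND in wild-type livers. Its diet difference was 0.66 ± 0.15 (adjusted p = 0.0208), although Mlkl-/- HFD library 2 lay within the range of the Mlkl-/- ND livers. Pdk4 was sparsely expressed, with 5.10, 17.8 and 7.09 CPM on HFD and 1.87, 5.40 and 3.87 CPM on ND in Mlkl-/- livers, and 11.9, 27.5 and 10.6 CPM on HFD and 4.53, 2.36 and 3.11 CPM on ND in wild-type livers. In each HFD group library 2 was far above the others, and Mlkl-/- HFD library 1 was below an Mlkl-/- ND liver. The Pdk4 difference was 1.87 ± 0.40 (adjusted p = 0.0231), with the widest error of the mitochondrial class.

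The 11 mitochondrial members without a call were led by Acadm, the medium-chain dehydrogenase (0.33 ± 0.10, adjusted p = 0.0590), and Cpt1a, the rate-limiting carnitine acyltransferase (0.32 ± 0.12, adjusted p = 0.115). Acadm and Hadha were nevertheless higher in every HFD liver than in any ND liver of the same genotype. The trifunctional subunits Hadha and Hadhb stood at 0.21 and 0.16, the electron carrier oxidoreductase Etfdh at 0.18 and the carnitine carrier Slc25a20 at 0.16. Acadvl, the very long-chain dehydrogenase, Cpt2, the inner carnitine acyltransferase, and Etfa lay between 0.07 and 0.10. Etfb, the partner subunit of Etfa in the electron transfer flavoprotein, was at -0.01. Acaa2, the thiolase that ends the cycle and the most counted mitochondrial member, had 805, 649.8 and 585 CPM on HFD and 613, 611 and 511 CPM on ND in Mlkl-/- livers, and 573, 545 and 663 CPM on HFD and 666, 689.5 and 631 CPM on ND in wild-type livers. Its groups overlapped and its difference was 0.04 ± 0.11 (95% interval -0.20 to 0.27). Reads of Etfb may be shared with Gm45233, an overlapping gene on the same strand, and those of Acadvl with Dvl2 on the opposite strand, as the strand setting of the counting is not given.

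Among peroxisomal members the thiolases Acaa1a and Acaa1b, which end each peroxisomal cycle, both rose. Both lie on chromosome 9 (mm10, GENCODE M21), Acaa1b at 119148023 to 119157093 on the minus strand and Acaa1a at 119339676 to 119350299 on the plus strand. Their whole transcripts are 84.4% identical over 1813 aligned positions. Their last 300 bases, at the 3' end where reads were taken, are less alike, with 210 of 350 aligned positions identical. Of 241 runs of 60 bases in the last 300 bases of Acaa1b, 42 also occur in the last 300 bases of Acaa1a. Reads may therefore have been split between Acaa1a and Acaa1b. Acaa1b had 2043, 1099.7 and 1442 CPM on HFD and 1027, 745 and 464 CPM on ND in Mlkl-/- livers, and 2170.4, 2577 and 2502 CPM on HFD and 1213, 1328 and 1196 CPM on ND in wild-type livers. In Mlkl-/- livers the lowest HFD value only just passed the highest ND value, while wild-type HFD livers were far above wild-type ND livers (1.00 ± 0.18, adjusted p = 0.00603). Acaa1a had 894, 587 and 621 CPM on HFD and 494, 357 and 269 CPM on ND in Mlkl-/- livers, and 819, 921 and 942 CPM on HFD and 528, 616 and 533 CPM on ND in wild-type livers. Diets did not overlap within either genotype, and the difference was 0.79 ± 0.15 (adjusted p = 0.00700).

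Decr2, whose promoter is shown above, had 266, 245 and 208 CPM on HFD and 146, 142 and 110.0 CPM on ND in Mlkl-/- livers, and 223, 243 and 267 CPM on HFD and 183, 172 and 143 CPM on ND in wild-type livers. All HFD livers exceeded all ND livers in level, and the difference was 0.70 ± 0.11 (adjusted p = 0.00246), the smallest adjusted p of the 33 genes. Pex11a, a membrane protein of peroxisome division, had 151, 86.8 and 128 CPM on HFD and 116, 56.1 and 51.4 CPM on ND in Mlkl-/- livers, and 144, 189 and 176 CPM on HFD and 93.8, 95.9 and 81.9 CPM on ND in wild-type livers. Mlkl-/- ND library 1 was above Mlkl-/- HFD library 2, and the wild-type diets did not overlap (0.81 ± 0.20, adjusted p = 0.0297). Ehhadh, the bifunctional enzyme of the classical peroxisomal pathway, had 370.0, 270.1 and 301 CPM on HFD and 179.8, 277 and 225 CPM on ND in Mlkl-/- livers, and 430.4, 460.2 and 361 CPM on HFD and 310.1, 292 and 296 CPM on ND in wild-type livers. HFD and ND overlapped by 1 library in Mlkl-/- livers and not in wild-type livers (0.47 ± 0.12, adjusted p = 0.0325).

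Hsd17b4, the bifunctional enzyme for branched and very long chains, had 498, 341 and 435 CPM on HFD and 344, 336 and 343 CPM on ND in Mlkl-/- livers, and 495, 534 and 494 CPM on HFD and 391, 369 and 343 CPM on ND in wild-type livers. Mlkl-/- HFD library 2 was within the ND range, and the 5 other HFD livers were above all ND livers (0.39 ± 0.11, adjusted p = 0.0375). The remaining peroxisomal members were not called. Acad11, a dehydrogenase of long-chain acyl-CoA, stood at 0.17 ± 0.10, and Eci2, an isomerase like Eci1, at 0.05 ± 0.11. Crot, which turns the products of peroxisomal oxidation into carnitine esters, ran the other way at -0.28 ± 0.23 (adjusted p = 0.534). Crot had 625, 355 and 629 CPM on HFD and 362, 890.1 and 1113 CPM on ND in Mlkl-/- livers, and 556, 611 and 597 CPM on HFD and 636, 512 and 611 CPM on ND in wild-type livers. Mlkl-/- ND libraries 2 and 3 were the highest of all 12, and Mlkl-/- HFD 2 and Mlkl-/- ND 1 the lowest.

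Of the regulators and further targets, Vnn1, which releases pantothenate for CoA turnover, had 140.5, 42.3 and 105 CPM on HFD and 22.0, 21.1 and 12.0 CPM on ND in Mlkl-/- livers, and 129.9, 165 and 143 CPM on HFD and 55.0, 25.2 and 43.1 CPM on ND in wild-type livers. HFD livers exceeded ND livers of their genotype throughout, but Mlkl-/- HFD library 2 was below 2 of the wild-type ND livers (2.11 ± 0.31, adjusted p = 0.00454). Ppara, the gene of the receptor itself, had 77.2, 102 and 156 CPM on HFD and 61.6, 159 and 102 CPM on ND in Mlkl-/- livers, and 170.5, 197 and 203 CPM on HFD and 114, 132 and 97.2 CPM on ND in wild-type livers. Wild-type HFD livers were above every other liver, whereas the 3 Mlkl-/- HFD livers lay within the range of the Mlkl-/- ND livers (0.39 ± 0.22, adjusted p = 0.324). Creb3l3, a liver transcription factor that works with PPAR-alpha in fasting, was at -0.09, and its level varied little, with 266, 264 and 255 CPM on HFD and 291, 263 and 280.4 CPM on ND in Mlkl-/- livers, and 230.0, 249 and 294 CPM on HFD and 263, 308 and 253 CPM on ND in wild-type livers. Acsl1, which activates long-chain fatty acids, had 939, 797 and 579 CPM on HFD and 704, 598 and 588 CPM on ND in Mlkl-/- livers, and 657, 647 and 1029 CPM on HFD and 877, 937 and 735 CPM on ND in wild-type livers. No diet group of Acsl1 or Creb3l3 stood apart (0.08 ± 0.15, adjusted p = 0.800, for Acsl1). Fgf21, a liver hormone of fasting, was counted at 6.54, 4.67 and 8.12 CPM on HFD and 0.982, 7.31 and 3.67 CPM on ND in Mlkl-/- livers, and 8.21, 13.4 and 8.49 CPM on HFD and 26.8, 7.22 and 10.9 CPM on ND in wild-type livers, with a difference of 0.06 ± 0.45 and a 95% interval of -0.94 to 1.05.

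**Figure D2:**
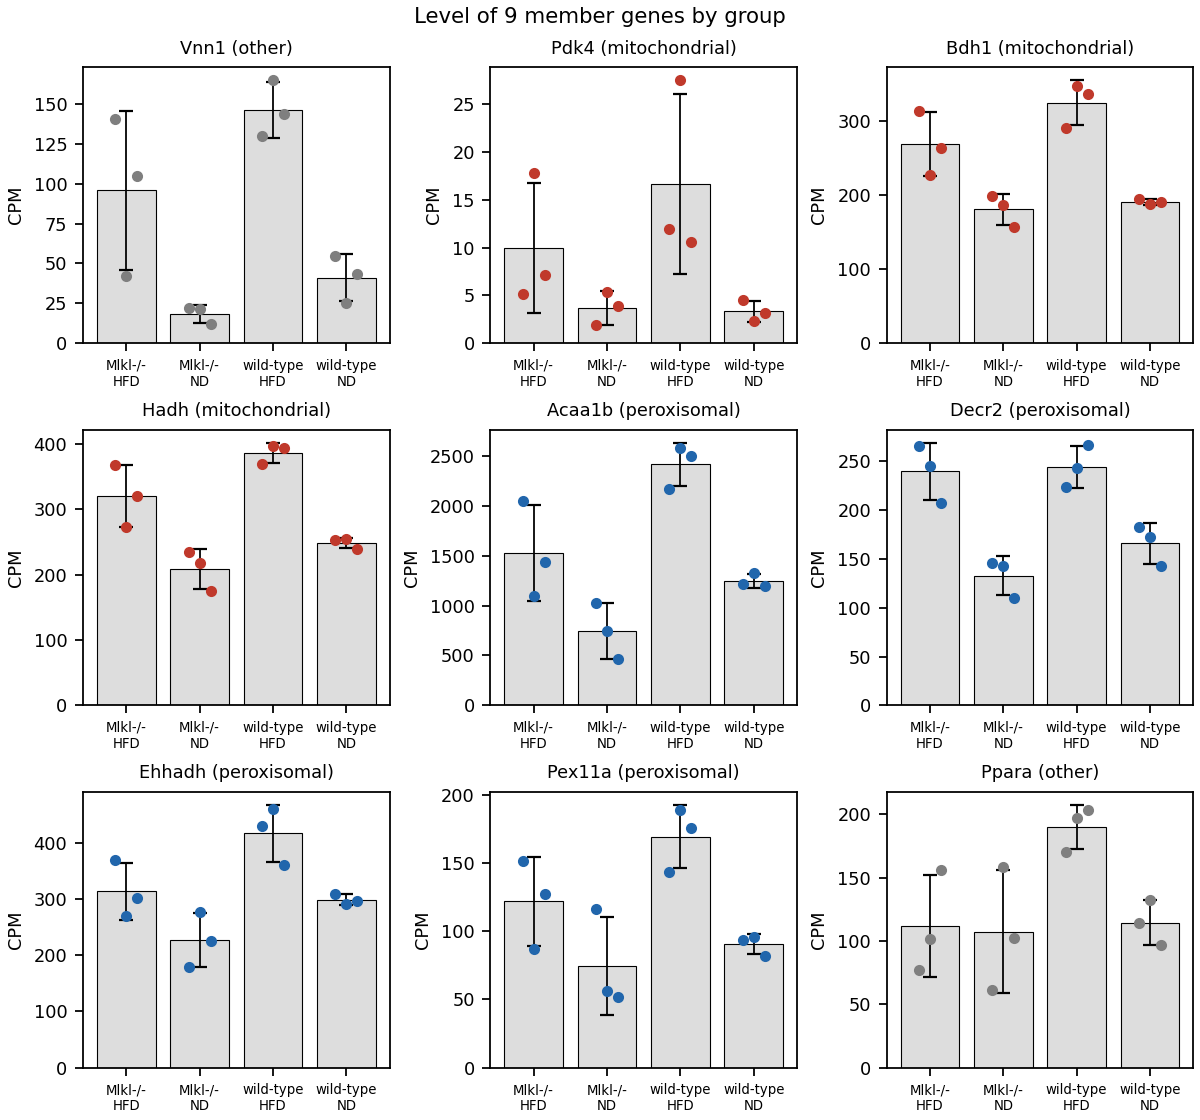
Level in CPM of 9 of the genes in each group. Bars are means of 3 livers, error bars their SD and points single livers, and HFD bars stand above the ND bars of the same genotype for every gene shown, with near-equal bars for Ppara in Mlkl-/- livers.

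Set beside each other, the organelles differed by less than members differed within either. The median log2 difference for diet was 0.47 over the 9 peroxisomal members and 0.32 over the 19 mitochondrial members, against -0.01 over all genes tested. Without Crat, Eci2 and Acad11 the medians were 0.70 and 0.26. Over 9 alternative settings that kept every library, the peroxisomal minus the mitochondrial median ran from 0.073 to 0.44. The peroxisomal values ran from -0.28 to 1.00 and the mitochondrial values from -0.01 to 1.87, so the classes overlapped, and no test of their difference was made. The order of the medians holds for these members only. Over 20 other peroxisomal genes the median was 0.13, and over 18 other mitochondrial genes 0.38. The spread between livers of a group, as a mean coefficient of variation, ran from 4.67% (Hadha) to 51.4% (Pdk4) in the mitochondrial class and from 7.62% (Acad11) to 24.3% (Pex11a) in the peroxisomal class.

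As a level per library, each class was summarised by the mean deviation of its members from their means over 12 libraries, in log2 CPM. Peroxisomal members stood at 0.36, -0.16 and 0.08 in Mlkl-/- HFD livers and at -0.34, -0.33 and -0.50 in Mlkl-/- ND livers. In wild-type livers they stood at 0.29, 0.41 and 0.41 on HFD and at -0.03, -0.03 and -0.16 on ND. Mlkl-/- HFD library 2 was therefore at the wild-type ND level, and all other HFD livers were above every ND liver. Mitochondrial members stood at 0.27, 0.05 and 0.06 in Mlkl-/- HFD livers and at -0.25, -0.25 and -0.30 in Mlkl-/- ND livers. Wild-type livers had 0.19, 0.28 and 0.28 on HFD and -0.07, -0.08 and -0.18 on ND. Here every HFD liver exceeded every ND liver. HFD minus ND came to 0.49 for peroxisomal and 0.40 for mitochondrial members in Mlkl-/- livers, and to 0.45 and 0.36 in wild-type livers.

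**Figure D3:**
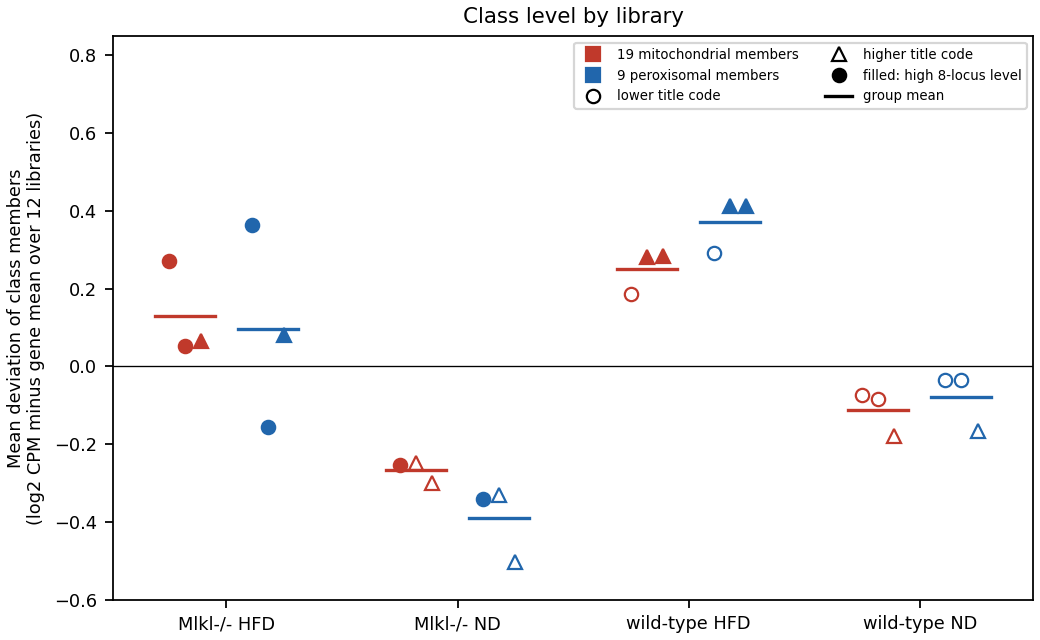
Mean deviation of the 19 mitochondrial (red) and 9 peroxisomal (blue) genes in each library, in log2 CPM, by group. Bars are group means, triangles have the higher title code level and filled symbols the high 8-locus level, and the peroxisomal value of Mlkl-/- HFD library 2 (-0.16) lies among the ND values.

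The calls for diet rest on the set of libraries to a degree that differs between genes. Acaa1a, Acaa1b, Acadl, Bdh1, Decr2, Eci1, Hadh and Vnn1 kept their call in all 12 fits that left out 1 library. Decr1 kept it in 10 of these, Pdk4 in 9, Acads in 8, Crat in 6, Ehhadh in 5, Pex11a in 3 and Hsd17b4 in 2. The number of called members ran from 9 (without wild-type ND 3, wild-type HFD 2 or Mlkl-/- HFD 1) to 16 (without Mlkl-/- ND 1 or Mlkl-/- HFD 2). Over all genes, the fits with 9 called 705, 616 and 660 in that order. Those with 16 called 2029 and 1441, against 1302 with every library. With the 8-locus level as a term 0 of 33 were called by edgeR, with 17 at an unadjusted p under 0.05 and 122 genes called over the whole table. Fitted values above 0 then numbered 26, against 30 without the term. The 15 genes had values of 0.26 (Acads) to 2.00 (Pdk4), with Vnn1 at 1.89, Ehhadh at 0.66, Decr2 at 0.57, Bdh1 at 0.52 and Hadh at 0.51, while Pex11a stood at 0.37, against 0.81 without the term. Adjusted p-values of these 15 ran from 0.0842 to 0.380. Within the 8-locus levels no comparison of diets had more than 1 library on both sides in either genotype, since the high level holds 1 Mlkl-/- ND library and no wild-type ND library, and the low level 1 wild-type HFD library and no Mlkl-/- HFD library. With the title code level as a term all 15 calls were kept, but the code itself lies within diet and cannot be told apart from it. Within the higher level 10 members and 807 of 19292 genes were called. Within the lower level 0 members were called, where 12 had an unadjusted p under 0.05 and 48 genes were called in all.

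In Mlkl-/- livers alone, HFD against ND left 1 member called, Decr2, at 0.85 ± 0.16 (log2, SE; adjusted p = 0.0352). Of all genes, 0.210% were called higher. Another 14 members had an unadjusted p under 0.05 and a value above 0, against 6.95% of all genes, and 31 of 33 values were above 0, against 48.1% of all genes. The diets did not overlap for 13 members, each higher on HFD, against 8.02% of all genes. The largest value was that of Vnn1 (2.38 ± 0.44, adjusted p = 0.0598), followed by Pdk4 (1.42 ± 0.57) and Acaa1b (1.04 ± 0.26, adjusted p = 0.102). Class medians were 0.47 for peroxisomal and 0.25 for mitochondrial members, and 0.71 and 0.24 without the 3 genes placed in both organelles. Crot was the lowest member at -0.56 ± 0.33.

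That comparison turned on Mlkl-/- ND library 1, the only Mlkl-/- ND library with the high 8-locus level. Once Mlkl-/- ND library 1 is left out, diet and that level cannot be told apart in Mlkl-/- livers. With the 8-locus level as a term and every library kept, 0 members were called. Without Mlkl-/- ND library 1, 10 members were called, with Crot lower and Acadl, Acads, Hadh, Eci1, Bdh1, Acaa1a, Acaa1b, Decr2 and Pex11a higher. The rise was not limited to the members, as 729 of all 18590 genes tested were then called, against 65 of 18098 with it. The peroxisomal minus the mitochondrial median was -0.06, against 0.22 with it. Decr2 lost its call without wild-type ND 1 or 2, Mlkl-/- ND 2 or 3, wild-type HFD 1 or 2, or Mlkl-/- HFD 1 or 2 in turn, with values of 0.74 to 0.91 and adjusted p-values of 0.0502 to 0.157. DESeq2 called 9 members and 514 of all 18098 genes.

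In wild-type livers alone, HFD against ND raised Bdh1 (0.77 ± 0.15, adjusted p = 0.0146), Hadh (0.64 ± 0.15, adjusted p = 0.0288) and Vnn1 (1.83 ± 0.43, adjusted p = 0.0431). Vnn1 was not called with the title code level as a term (1.82, adjusted p = 0.0825) or without the filter (1.83, adjusted p = 0.0993). The 3 calls compare with 2.02% of all genes called higher. At an unadjusted p under 0.05 there were 17 members, all higher, against 9.61% of all genes, and 25 of 33 values were above 0, against 49.0% of all genes. Libraries did not overlap for 23 members that were higher on HFD (14.0% of all genes) and for Etfb, which was lower (15.2% of all genes). Acaa1b (0.96 ± 0.26, adjusted p = 0.0506), Pdk4 (2.32 ± 0.58, adjusted p = 0.0517) and Decr2 (0.56 ± 0.16, adjusted p = 0.0561) lay just beyond the threshold. Medians were 0.48 for peroxisomal and 0.26 for mitochondrial members. Leaving out 1 library gave 0 calls without wild-type ND 1, 2 or 3 or wild-type HFD 2, 1 call, Bdh1, without wild-type HFD 1 or 3, and 7 without Mlkl-/- ND 1. That last fit called 1233 of all 18590 genes tested, against 766 of 18098 with every library. Without an Mlkl-/- library Bdh1 and Hadh were called each time and Vnn1 in 3 of 6 fits. DESeq2 called 10 members and 1465 of all 18098 genes. The fit of these 6 libraries alone called 12 members and 1431 of 17426 genes.

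Both genotypes were also compared in their response to diet, through the interaction of genotype and diet. No gene of the 18098 was called by edgeR (0%), and 0 members had an unadjusted p under 0.05, against 10.4% of all genes. DESeq2 called 58 genes and limma-voom 0, with 0 members in either. The intervals of single members remain wide: for Decr2 the response of Mlkl-/- livers minus that of wild-type livers was 0.29 ± 0.22 with a 95% interval of -0.18 to 0.76, for Bdh1 -0.20 with -0.65 to 0.25, for Acaa1b 0.08 with -0.69 to 0.85 and for Ppara -0.67 with -1.62 to 0.27. With 3 livers a group, differences as large as the ends of these intervals are not excluded. The median interaction was 0.04 in both organelle classes, against 0.01 over all genes.

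**Figure D4:**
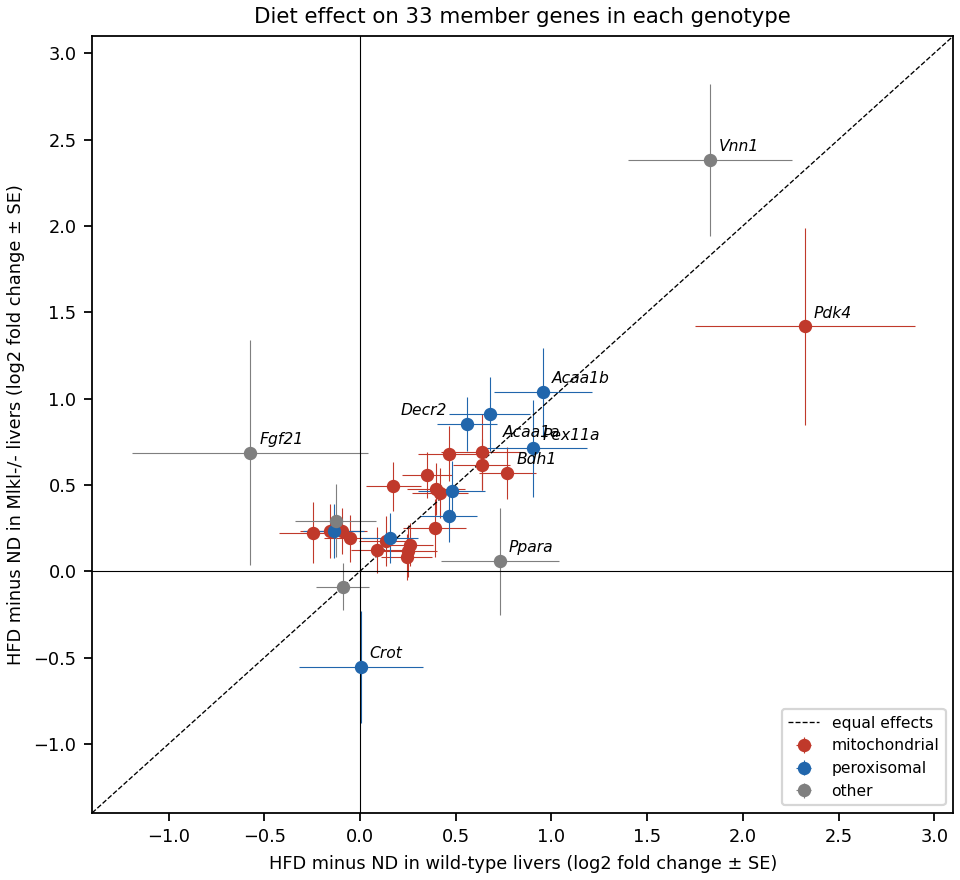
Diet difference (HFD minus ND, log2, with SE) of the 33 genes in Mlkl-/- livers (vertical) and in wild-type livers (horizontal), with the line of equal effects. Most genes lie to the right of 0 and above 0, with Vnn1 and Pdk4 farthest out, Fgf21 to the left of 0 and Crot below 0.

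Mlkl-/- against wild type, averaged over the diets, called 0 of the 33 genes. Of all genes 0.0166% were called, which is 3 genes, all lower. At an unadjusted p under 0.05 there were 9 members, each lower in Mlkl-/- livers (6.01% of all genes), and 26 of 33 fitted values were below 0, against 48.3% of all genes. The 9 were Acaa1b, Crat, Ehhadh, Acaa1a, Vnn1, Fgf21, Acad11, Hadh and Decr1. Acaa1b stood at -0.70 ± 0.18 (adjusted p = 0.194), Crat at -0.56 ± 0.15 (adjusted p = 0.223) and Ehhadh at -0.40 ± 0.12 (adjusted p = 0.264). DESeq2 called Acaa1b and Vnn1 lower, with 207 of all 18098 genes called, and limma-voom called 0 members.

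The level values show the size of these differences. Acaa1b averaged 1528 ± 478 CPM in Mlkl-/- HFD livers and 2416 ± 216 CPM in wild-type HFD livers (SD, n = 3 each). On ND it averaged 745 ± 281 CPM in Mlkl-/- livers and 1246 ± 71.7 CPM in wild-type livers. On each diet all Mlkl-/- livers were below all wild-type livers, which held in both diets for 4 members, Crat, Hadh, Acaa1b and Acad11, against 0.718% of all genes. Vnn1 averaged 18.4 ± 5.55 CPM in Mlkl-/- ND livers and 41.1 ± 15 CPM in wild-type ND livers. On HFD it averaged 95.9 ± 49.7 CPM in Mlkl-/- livers and 146 ± 17.6 CPM in wild-type HFD livers. Its ND livers did not overlap and its HFD livers did, through Mlkl-/- HFD library 1.

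On ND, 0 members were called, as against 0.00553% of all genes, and 7 had an unadjusted p under 0.05, all lower in Mlkl-/- livers (2.70% of all genes). That number was 2 without wild-type ND 1 or Mlkl-/- ND 3, 4 without wild-type ND 2, and 12 without Mlkl-/- ND 1. Crat (-0.59 ± 0.22), Acadm (-0.31 ± 0.14), Ehhadh (-0.40 ± 0.17), Acaa1a (-0.58 ± 0.21), Acaa1b (-0.74 ± 0.26), Fgf21 (-1.90 ± 0.65) and Vnn1 (-1.16 ± 0.43) were these 7. Fgf21 was at 0.982, 7.31 and 3.67 CPM in Mlkl-/- ND livers, against 26.8, 7.22 and 10.9 CPM in wild-type ND livers. The groups overlapped, and wild-type ND library 1 was the highest of all 12. Values were below 0 for 28 of 33 members (50.0% of all genes), and 13 members were lower without overlap, against 5.56% of all genes. DESeq2 and limma-voom called 0.

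On HFD, again 0 members were called, as against 0.0276% of all genes, with 4 lower and 1 higher at an unadjusted p under 0.05, where 8.29% of all genes were lower and 7.21% higher. These 5 became 0 without wild-type HFD 2, 1 without Mlkl-/- HFD 2, 3 without Mlkl-/- HFD 3 and 9 without Mlkl-/- HFD 1. Lower were Crat (-0.54 ± 0.22), Ehhadh (-0.41 ± 0.17), Acaa1b (-0.66 ± 0.26) and Ppara (-0.77 ± 0.31), and higher was Etfb (0.47 ± 0.18). Ppara averaged 112 ± 40.4 CPM in Mlkl-/- HFD livers and 190.2 ± 17.3 CPM in wild-type HFD livers, with no overlap. Values were below 0 for 24 of 33 members (48.3% of all genes), and 9 members were lower without overlap, against 10.8% of all genes. DESeq2 and limma-voom called 0 here too.

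**Figure D5:**
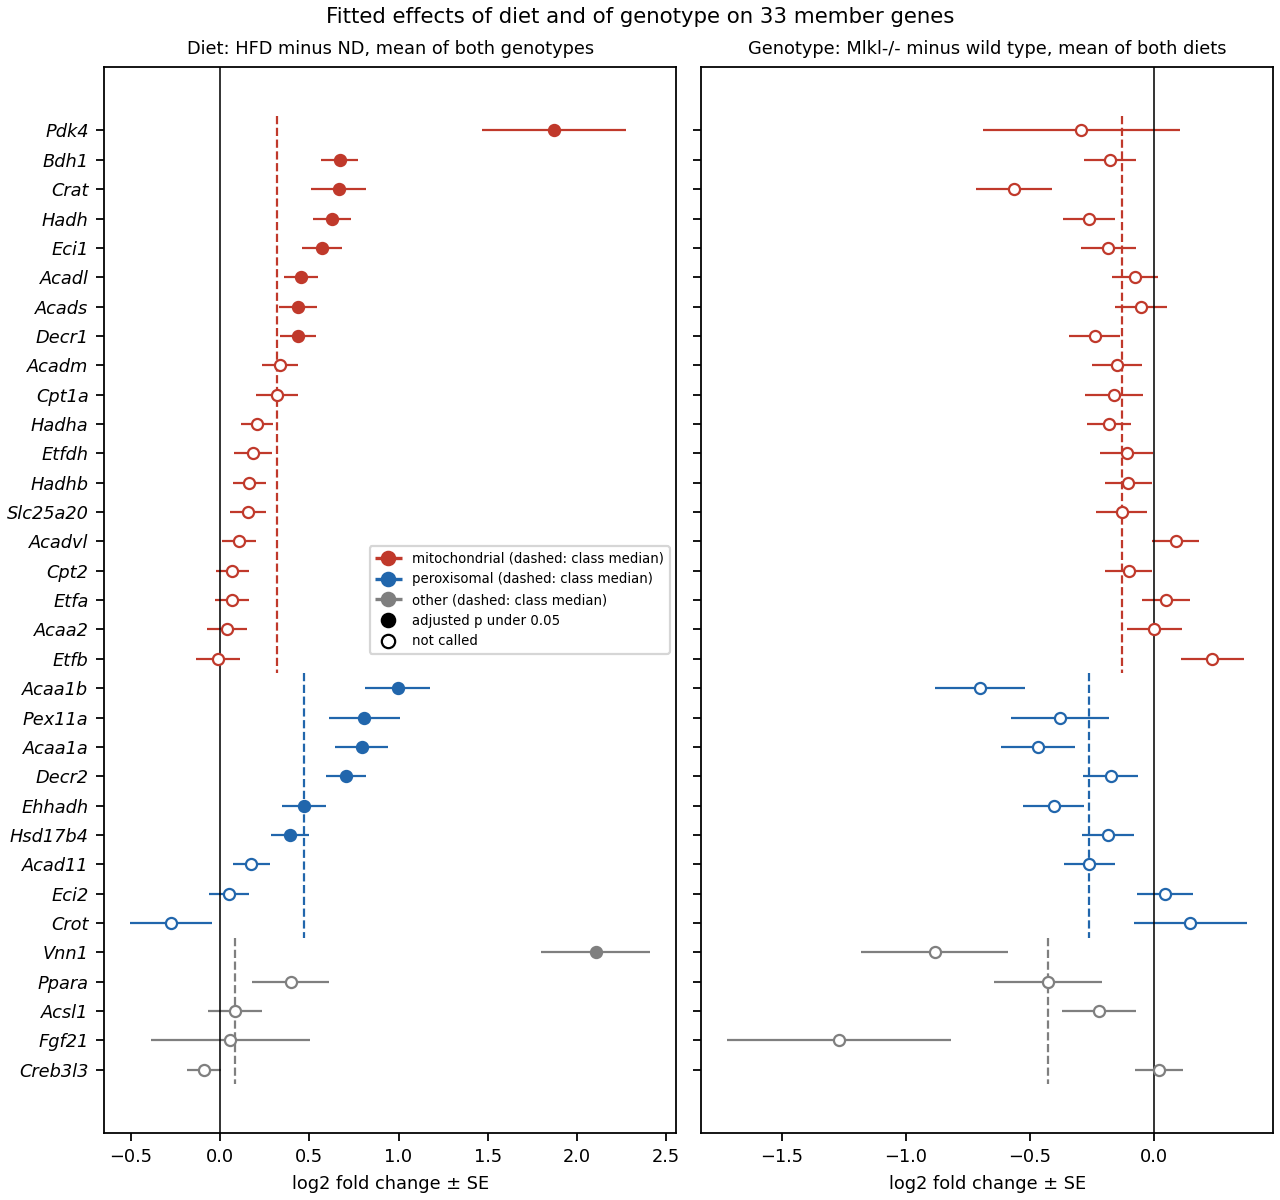
Fitted log2 difference with SE for each gene, HFD minus ND averaged over genotypes (left) and Mlkl-/- minus wild type averaged over diets (right), by class. Filled points were called at an adjusted p under 0.05 and dashed lines are class medians (0.32, 0.47 and 0.08 on the left, -0.13, -0.26 and -0.43 on the right for mitochondrial, peroxisomal and other genes).

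For genotype too, peroxisomal members had the median farther from 0. It was -0.26 over peroxisomal and -0.13 over mitochondrial members averaged over the diets, -0.28 and -0.13 on ND, and -0.26 and -0.11 on HFD, against 0.01, 0.00 and 0.01 over all genes. The ranges overlapped again, from -0.70 to 0.15 for peroxisomal and from -0.56 to 0.24 for mitochondrial members, and the difference was not tested. This order of the medians too holds for these members only. Averaged over the diets, the median was -0.06 over 20 other peroxisomal genes and -0.24 over 18 other mitochondrial genes. Class levels of the 3 Mlkl-/- ND livers were below those of the 3 wild-type ND livers in both classes. On HFD they overlapped in the mitochondrial and in the peroxisomal class, as Mlkl-/- HFD library 1 was at the wild-type level. With library size in place of the TMM scaling, the median of all genes moved to -0.10 and the mitochondrial median to -0.24.

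Marker genes of other liver cells moved with genotype and with diet as well. On HFD, at an unadjusted p under 0.05, 8 of 9 macrophage, 5 of 6 endothelial and 5 of 6 stellate markers were lower in Mlkl-/- livers, with medians of -1.24, -0.98 and -0.89, and on ND 0 of each. Of all genes, 8.29% were lower at that level on HFD and 2.70% on ND. The macrophage sum was 83.2 to 177 CPM in Mlkl-/- HFD, 195 to 277 CPM in wild-type HFD, 100.3 to 209 CPM in Mlkl-/- ND and 124 to 157 CPM in wild-type ND livers. The endothelial sum was 74.3 to 96.3 CPM in Mlkl-/- HFD, 136 to 228 CPM in wild-type HFD, 89.2 to 151 CPM in Mlkl-/- ND and 107 to 168 CPM in wild-type ND livers. The stellate sum was 149 to 179 CPM in Mlkl-/- HFD and 180.5 to 368 CPM in wild-type HFD livers. For diet, 6 of 9 macrophage markers were higher and 5 of 7 hepatocyte markers lower in wild-type livers at that level (Ccr2 and Gpnmb called higher, Fgb called lower). In that comparison 1739 of all 18098 genes were higher and 1963 lower at that level. In Mlkl-/- livers 0 macrophage markers were higher and 1 was lower, and 3 hepatocyte markers were lower. Of all 18098 genes, 1257 were higher and 1202 lower there. In the interaction 8 of 9 macrophage markers were below 0 at an unadjusted p under 0.05, with a median of -1.4 and 0 called. Over all 18098 genes 940 were below 0 at that level. The hepatocyte sum was 75321 to 99307 CPM in Mlkl-/- HFD and 71179 to 106390 CPM in Mlkl-/- ND livers, and 57587 to 80562 CPM in wild-type HFD and 97824 to 101516 CPM in wild-type ND livers. For diet averaged over the genotypes, the hepatocyte markers Cps1 and Fgb were called lower and the macrophage marker Gpnmb higher. Of the 6 adipocyte markers 5 were then higher at an unadjusted p under 0.05, with a median of 2.21, and Adipoq was called. Over all 18098 genes 1934 were higher at that level. For genotype averaged over the diets 3 of the 6 adipocyte markers were lower at that level, with a median of -1.78 and 0 called. Of all genes, 6.01% were lower. The adipocyte sum was small, at 7.16 CPM in the lowest library and 43.5 CPM in the highest. The part of these shifts in the results for the 33 genes was not tested.

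Other genes of the pathways, from 6 lists without the 33, were read in the same fit. For diet averaged over the genotypes, 9 of 16 other PPAR-alpha targets rose and none fell, with a median of 0.62, against 3.57% of all genes called higher and a median of -0.01. They included the omega-hydroxylases Cyp4a14 (2.65 ± 0.43) and Cyp4a10 (1.13 ± 0.20), the thioesterase Acot3 (2.22 ± 0.49) and the fatty acid transporter Cd36 (1.66 ± 0.33). Cyp4a14 averaged 687 ± 465 CPM in Mlkl-/- HFD livers and 62.7 ± 3.83 CPM in Mlkl-/- ND livers, and 749 ± 171 CPM and 209.8 ± 112 CPM in wild-type livers on HFD and ND (SD, n = 3). The Cyp4a and Acot genes are families of close copies, and reads may be shared within them.

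In the list of ketone body enzymes and carriers, 3 of 8 genes rose and 1 fell. The monocarboxylate carrier Slc16a7 rose by 1.01 ± 0.15 (adjusted p = 0.00232). Bdh2, a cytosolic dehydrogenase, fell by 0.77 on the log2 scale (adjusted p = 0.0246).

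Of 18 other mitochondrial genes 7 rose and 1 fell (median 0.38). Acot2, a matrix thioesterase, rose by 1.15 ± 0.17, the acyl-CoA dehydrogenase Acad12 by 1.04 ± 0.15, the uncoupling protein Ucp2 by 0.94 ± 0.21 and Cpt1b, the muscle form of the carnitine acyltransferase, by 0.92 ± 0.24, whereas Acadsb fell by 0.50 on the log2 scale. Of 20 other peroxisomal genes 3 rose (median 0.13), among them Acot4 (0.90 ± 0.21) and Ech1 (0.43 ± 0.12). Of 17 genes of peroxisome biogenesis 1 rose, Pex19 (0.32 ± 0.09), with a median of 0.15. Of 22 partners and regulators of PPAR-alpha, Acacb, whose product malonyl-CoA blocks Cpt1a, rose by 2.04 ± 0.27 and Pparg by 0.97 ± 0.23, and Fgfr1 fell by 1.07 on the log2 scale (median 0.17).

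By genotype, averaged over the diets, 0 genes of the 6 lists were called by edgeR. The other PPAR-alpha targets had 9 of 16 lower and 0 higher at an unadjusted p under 0.05 and a median of -0.52, against 6.01% of all genes lower and a median of 0.01. In the other lists, lower at that level were 1 of 8 ketone body genes (median -0.10), 7 of 18 mitochondrial genes (-0.24), 3 of 20 peroxisomal genes (-0.06), 2 of 17 biogenesis genes (-0.01) and 2 of 22 partners and regulators (-0.01). Higher at that level were 2 biogenesis genes and 0 of the other 4 lists. In single genotypes, diet called Acot1 and Acot2 in Mlkl-/- livers. In wild-type livers the genes called included Slc16a7, Acad12, Pdk1, Ucp2, Cd36, Pparg and Acacb higher and Bdh2 lower.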

How the data were processed

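Per the labels' protocols, total liver RNA was made into 3' mRNA libraries (QuantSeq) and sequenced on a NextSeq instrument. Per the submitters' processing notes, cutadapt 1.9, HISAT2, featureCounts and limma were used with the mm10 build, with the other versions, the annotation and the strand setting not given in the sources used here. Raw counts per gene and library were deposited by the authors without normalization. Reads carry no stated molecular identifiers, so the counts are of reads and not of separate molecules. Libraries of a group differed beyond sampling noise (chi-square per degree of freedom 17.9 to 125), and each was taken as 1 animal.

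The 33 members and all lists were chosen with earlier results of these data known. Counts were tested with edgeR 4.0.16 in R 4.3.3 (filterByExpr at 10 counts and 15 in total, leaving 18098 genes, TMM factors of 0.922 to 1.16, robust glmQLFit with 4 group means and 8 residual degrees of freedom, glmQLFTest for 7 contrasts). The Benjamini-Hochberg adjustment ran over all genes tested, and a gene is called under 0.05. CPM levels were computed from the deposited counts on TMM library sizes, except at the 8 loci, where total counts were used. Class levels use log2 CPM with a prior count of 2. Libraries do not overlap for a gene where every library of a group is above every library of the other, in both strata for averages. Values in every library are given for members called in any contrast and, per class, the 3 with the largest averaged diet difference and the most counted. Crot and Fgf21 are given in every library as well, outside this rule. Of each other list up to 4 called genes are named per contrast, and Acadsb was named after its value was seen. The script was tested on simulated data.

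Alternatives were RLE factors, library size only, no filter beyond 1 count, 5 CPM in 3 libraries, DESeq2 1.42.0, limma-voom (limma 3.58.1), the title code level or 8-locus level as a term, fits of the 2 groups or of 1 code level, omission of Crat, Eci2 and Acad11, and leaving out each library. Symbols came from the gene table supplied with the genome, and Tf, a hepatocyte marker, matched no identifier. A few genes of the other lists are counted but not reported here by name.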

Additional observations from a re-analysis of the deposited data

How the results depend on the processing

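No paired analysis was possible because the titles give the animals no replicate numbers shared between groups. No alternative gave a call opposite to the report. For diet averaged over genotypes, 15 members were called, and 13 to 18 with other scaling, filters, tools or the title code level, but 0 with the 8-locus level and 0 within the lower code level (9 to 16 with 1 library left out). In Mlkl-/- livers 1 was called, and 3 with library size only, 3 without the filter, 2 at 5 CPM, 9 by DESeq2, 2 by limma-voom, 0 with the 8-locus level and 0 with 2 groups (0 to 10 with 1 library left out). In wild-type livers 3 were called, and 14 with library size only, 6 at 5 CPM, 10 by DESeq2, 0 with the 8-locus level and 12 with 2 groups (0 to 7). For genotype averaged 0 were called, and 2 by DESeq2 and 1, Ppara, within the lower code level. Genotype on ND, genotype on HFD and the interaction had 0 members called in each fit run. Over all genes, DESeq2 called 514 for diet in Mlkl-/- livers (edgeR 65), 1465 in wild-type livers (766), 398 for genotype on HFD (5), 49 on ND (1), 207 averaged (3) and 58 for the interaction (0). With the 8-locus level edgeR called 27 for diet in Mlkl-/- livers, 158 in wild-type livers and 122 averaged (1302), and with 2 groups 8 and 1431. Library size only gave 100, 1102 and 1980, and 36 for genotype on HFD, and no filter gave 171 for diet in Mlkl-/- livers and 124 for genotype on HFD. Within the title code levels diet averaged had 48 (lower) and 807 (higher).

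With library size only, the median of all genes moved to 0.19 for diet in wild type, and class medians moved with it. Mitochondrial medians were then 0.33 (diet in Mlkl-/-), 0.45 (diet in wild type), 0.46 (diet averaged), -0.28 (genotype on HFD), -0.24 (genotype averaged) and -0.069 (interaction), and peroxisomal ones 0.68 (diet in wild type) and -0.42 (genotype on HFD). Without Crat, Eci2 and Acad11 the peroxisomal medians were 0.71 (diet in Mlkl-/-) and 0.70 (diet averaged), and peroxisomal minus mitochondrial was 0.47, 0.44, -0.26 (genotype on HFD) and -0.26 (genotype averaged). With the 8-locus level that difference was 0.064 for diet in Mlkl-/- livers.

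With 1 library left out, peroxisomal minus mitochondrial medians ran from -0.062 to 0.28 (diet in Mlkl-/-), 0.11 to 0.25 (diet averaged), -0.21 to -0.050 (genotype on ND) and -0.088 to 0.17 (interaction). Mitochondrial medians ran from 0.25 to 0.41 (diet in Mlkl-/-), -0.21 to -0.044 (genotype on HFD), -0.22 to -0.12 (genotype on ND) and -0.060 to 0.11 (interaction), and peroxisomal ones from -0.15 to 0.28 (interaction). Uncalled genes near 0 changed sign: Creb3l3 to 0.047 with library size only, Acaa2 to -0.030 and Acsl1 to -0.12 with the 8-locus level, Acaa2 to -0.0056 and Acsl1 to -0.044 without wild-type HFD 3, and Acaa2 to -0.032 and Acsl1 to -6.06e-05 without Mlkl-/- HFD 1. With 1 library left out Acaa2 reached 0.087 and Acsl1 0.17 at most. The causes were not tested.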
